A study of Homo sapiens with 9 samples.

Results

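The 36 genes described here encode the enzymes of cholesterol synthesis, the machinery that senses sterols and controls those enzymes, and proteins that move, take up or store cholesterol. They were chosen by symbol, with earlier results of these data known, and all 36 were found among the 28216 gene rows of the deposited count table. They fall into 4 roles, with 8 genes of the mevalonate arm, 12 of the steps from squalene to cholesterol, 7 of sterol sensing and 9 of transport, uptake and storage. RNA was sequenced from 2 established human prostate cancer lines with the genotype labelled WT, PC3 and LNCaP (clone FCG), which both come from metastases, with 3 libraries in each of 3 groups. PC3 cells were untreated and grown in F12K medium with 10% serum, and they are a model of androgen-insensitive disease. LNCaP cells were moved for 24 h to phenol red-free RPMI with 10% charcoal-stripped serum, from which steroids and other lipophilic molecules have been depleted. For the next 48 h they received either 10 nM androgen or 0.01% ethanol as the vehicle. The sample labels give the androgen as DHT (dihydrotestosterone), while the main text of the study names R1881, a synthetic androgen. The labels do not say whether the replicates of a group were separate cultures. The study describes its data in general as coming from independent experiments and modelled an experimental batch in the RNA-seq, without saying which libraries shared one, so the p-values measure the spread between these libraries, which may in part be technical.

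Cholesterol is built from acetyl-CoA through mevalonate, isoprenoid diphosphates, squalene and lanosterol. The transcription factors encoded by SREBF1 and SREBF2, the SREBPs, are held in the endoplasmic reticulum by SCAP and the INSIG proteins when sterols are plentiful. When sterols fall, SCAP carries the SREBPs to the Golgi, where the proteases encoded by MBTPS1 and MBTPS2 release the active factor, and most enzyme genes of the pathway, INSIG1 and SREBF2 itself are among its targets. In androgen-responsive prostate cells, androgens are known to raise the expression of lipid and sterol synthesis genes. These statements are background and were not tested here.

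Libraries held 17397706 to 25640325 reads on genes, and every vehicle-treated library (at most 18674795) was smaller than every androgen-treated library (at least 21094326). The smallest count of any of the 36 genes in any library was 191, for MYLIP, so all values rest on more than a few reads. The 7 LNCaP markers reported here (KLK3, KLK2, TMPRSS2, FOLH1, HOXB13, KRT8 and KRT18) were all above 1 CPM in every LNCaP library, while 4 of the 7 were in every PC3 library. Their summed level was 911 to 1260.0 CPM in PC3, 10701 to 11696 with androgen and 3122 to 3509 with vehicle. HOXB13 went against the list, with 467, 507 and 810 CPM in PC3, 408, 437 and 422 with androgen and 547, 556 and 538 with vehicle, and passed as higher in PC3 against androgen at 0.49 (adjusted p = 0.0395). The 5 PC3 markers (VIM, CD44, CAV1, ANXA1 and EPHA2) summed to 2859 to 3003 CPM in PC3 and to 8.81 to 30.1 CPM in LNCaP libraries. In replicates 1, 2 and 3 the LNCaP sums were 30.1, 17.5 and 14.4 CPM with androgen and 15.5, 8.81 and 9.83 with vehicle. Replicate 1 was the highest of both groups, and the part of this in the other results was not tested. Of the markers of other cell types, COL1A1 made up most of a sum of at most 50.6 CPM, and PTPRC and PECAM1 were below the filter in every comparison. They were not absent from PC3, where PECAM1 had 47, 65 and 85 counts and PTPRC 7, 4 and 5. In the LNCaP libraries both had 0 counts, except for 1 count of PECAM1 in vehicle replicate 1. COL1A1 had 33.4 to 40.8 CPM in PC3 and 11.9 to 15.3 with androgen, and COL3A1 had 3.57 to 6.54 and 0.0495 to 0.179. Both were called higher in PC3 against androgen, at 1.51 and 5.20, and COL3A1 also against vehicle, at 2.39, and their part in the other results was not tested. COL3A1 was above 3 CPM only in PC3 libraries, so it entered these tests through the group where it was high. In such bulk samples, fewer cells of a type and less RNA per cell cannot be told apart.

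Levels are given in CPM, the counts divided by library size and scaled with TMM factors over all 9 libraries, and values in a row are given for replicates 1, 2 and 3. Every comparison used the 6 libraries of its own groups in edgeR's quasi-likelihood test, and adjusted p-values are over all genes with more than 3 CPM in at least 3 of these libraries. The word called is kept for genes that had both an adjusted p under 0.05 and at least a 2-fold difference, and a gene that met the first of these alone is said to pass. All 36 genes were tested in all 3 comparisons. Each group of libraries enters 2 of the 3 comparisons, so these are not independent of each other. Between PC3 and either LNCaP group, the cell line, medium, serum and treatment differed together, and their parts cannot be told apart.

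The upstream sequences of 6 genes are shown because their levels separated the groups in different ways. SREBF2, INSIG1, HMGCS1 and MSMO1 were higher in LNCaP cells and rose with androgen, whereas LBR fell with androgen and MBTPS1 was higher in PC3. These 6 were picked after their values were seen and do not stand for the other genes that moved in the same direction. Each stretch comes from the 250 bases before the transcript start in RefSeq (GRCh38.p14), without bases in untranslated regions or in exons of the gene in GENCODE 44, and is written 5′ to 3′ on the strand of the gene. Capitals mark CCAAT or its reverse complement ATTGG, the box bound by NF-Y, a common partner of SREBPs, and in SREBF2 also TCACCCCAC, a match to the sterol regulatory element TCACNCCAC.
SREBF2 (chr22:41832855-41833104, plus strand): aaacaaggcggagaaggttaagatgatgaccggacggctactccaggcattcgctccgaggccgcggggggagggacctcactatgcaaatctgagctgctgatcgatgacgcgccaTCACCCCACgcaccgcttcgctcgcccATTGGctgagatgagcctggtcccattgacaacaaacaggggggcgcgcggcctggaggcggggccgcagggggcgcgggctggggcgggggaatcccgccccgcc
INSIG1 (chr7:155297628-155297775, plus strand): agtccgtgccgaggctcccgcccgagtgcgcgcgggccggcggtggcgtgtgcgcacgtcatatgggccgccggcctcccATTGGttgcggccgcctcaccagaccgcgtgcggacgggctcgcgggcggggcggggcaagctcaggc
HMGCS1 (chr5:43313513-43313662, minus strand): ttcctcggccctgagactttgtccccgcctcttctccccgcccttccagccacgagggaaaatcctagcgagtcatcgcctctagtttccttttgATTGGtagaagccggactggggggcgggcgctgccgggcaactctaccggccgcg
MSMO1 (chr4:165327419-165327666, plus strand): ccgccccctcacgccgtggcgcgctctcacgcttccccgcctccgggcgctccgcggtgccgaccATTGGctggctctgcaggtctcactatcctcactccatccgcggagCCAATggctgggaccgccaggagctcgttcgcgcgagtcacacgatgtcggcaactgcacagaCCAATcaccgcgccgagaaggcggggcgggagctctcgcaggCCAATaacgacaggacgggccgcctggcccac
LBR (chr1:225428926-225429071, minus strand): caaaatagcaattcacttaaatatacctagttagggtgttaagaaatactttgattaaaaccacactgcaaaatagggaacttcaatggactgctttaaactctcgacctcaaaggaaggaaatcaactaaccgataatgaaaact
MBTPS1 (chr16:84116943-84117192, minus strand): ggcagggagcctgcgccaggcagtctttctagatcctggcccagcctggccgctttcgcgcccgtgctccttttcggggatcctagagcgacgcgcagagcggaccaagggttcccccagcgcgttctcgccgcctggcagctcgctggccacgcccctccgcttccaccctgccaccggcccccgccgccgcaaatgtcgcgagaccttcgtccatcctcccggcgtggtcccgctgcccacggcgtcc

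For 32 of the 36 genes, the promoter set used here holds the 250 bases before to 50 bases after a RefSeq start. ACAT2, FDFT1, SQLE and SCARB1 have no entry in this set. On both strands, TCACNCCAC was found in 1 of the 32, SREBF2, where it starts 133 bases before the transcript start, against 1.15% of 27305 promoters in all. The looser form TCACNCNAC, which includes the former, was in 3 of 32 (SREBF2, FDPS and HSD17B7) against 2.57% of all. CCAAT was in 20 of 32 (62.5%) against 35.7%, and the GC box GGGCGG in 27 of 32 (84.4%) against 44.6%. Genes that rose with androgen were found with CCAAT, such as MVK and MVD, and without it (IDI1, GGPS1, CYP51A1, SCAP and NPC1 among them). Of those that fell, TMEM97, HSD17B7 and MYLIP had CCAAT, and LBR and INSIG2 did not. AGAACA, part of the androgen receptor element, was in 1 of 32 (PMVK) against 14.9%, and the E-box CACGTG in 4 of 32 (12.5%) against 7.43%. These shares describe letters in a short window, and no match says only that the letters are not in it. The 27305 promoters were not limited to genes expressed in these cells, whereas all 32 genes were above the filter. The part of this in the shares was not tested.

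Androgen-treated LNCaP cells had higher levels of most of the 36 genes than vehicle-treated cells. Of the 36, 13 were called higher and 1 lower, where 6.54% of the 11697 genes tested were called higher and 7.49% lower. By the p-value alone, 27 passed as higher and 5 as lower, against 37.1% and 37.8% of all genes tested, and 4 did not pass. The median log2 fold change of the 36 was 0.72, beside -0.0068 over all genes tested. All 8 genes of the mevalonate arm passed as higher, as did 9 of 12 from squalene to cholesterol, 5 of 7 of sterol sensing and 5 of 9 of transport, uptake and storage. Per role, 3, 6, 2 and 2 genes were called higher, and the gene called lower was LBR. Vehicle-treated libraries held fewer counts than androgen-treated ones, and the part of depth in these differences was not tested.

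Against androgen-treated LNCaP cells, PC3 cells had lower levels of nearly all of these genes. Of the 36, 20 were called lower and 1 higher, MBTPS1, where 22.1% of 12541 genes were called lower and 24.0% higher. By the p-value alone, 31 passed as lower and 3 as higher, against 41.1% and 42.9% of all. The median log2 fold change was -1.12, beside 0.04 over all genes tested. All 8 mevalonate genes and all 12 from squalene to cholesterol passed as lower, and 5 and 7 of them were called. Of the 7 sensing genes, 4 were called lower and 1 higher, and of the 9 transport genes 4 were called lower.

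Against vehicle-treated LNCaP cells fewer of the genes were called. PC3 cells had 12 of the 36 genes called lower and 2 higher, MBTPS1 and NPC1, where 21.0% of 12686 genes were called lower and 22.2% higher. By the p-value alone, 20 passed as lower, 7 as higher and 9 did not pass, against 40.8% and 42.6% of all. The median log2 fold change was -0.53, beside 0.03 over all genes tested. Called lower were 3 of the 8 mevalonate genes, 5 of the 12 from squalene to cholesterol, 3 of the 7 sensing genes and 1 of the 9 transport genes.

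**Figure D1:**
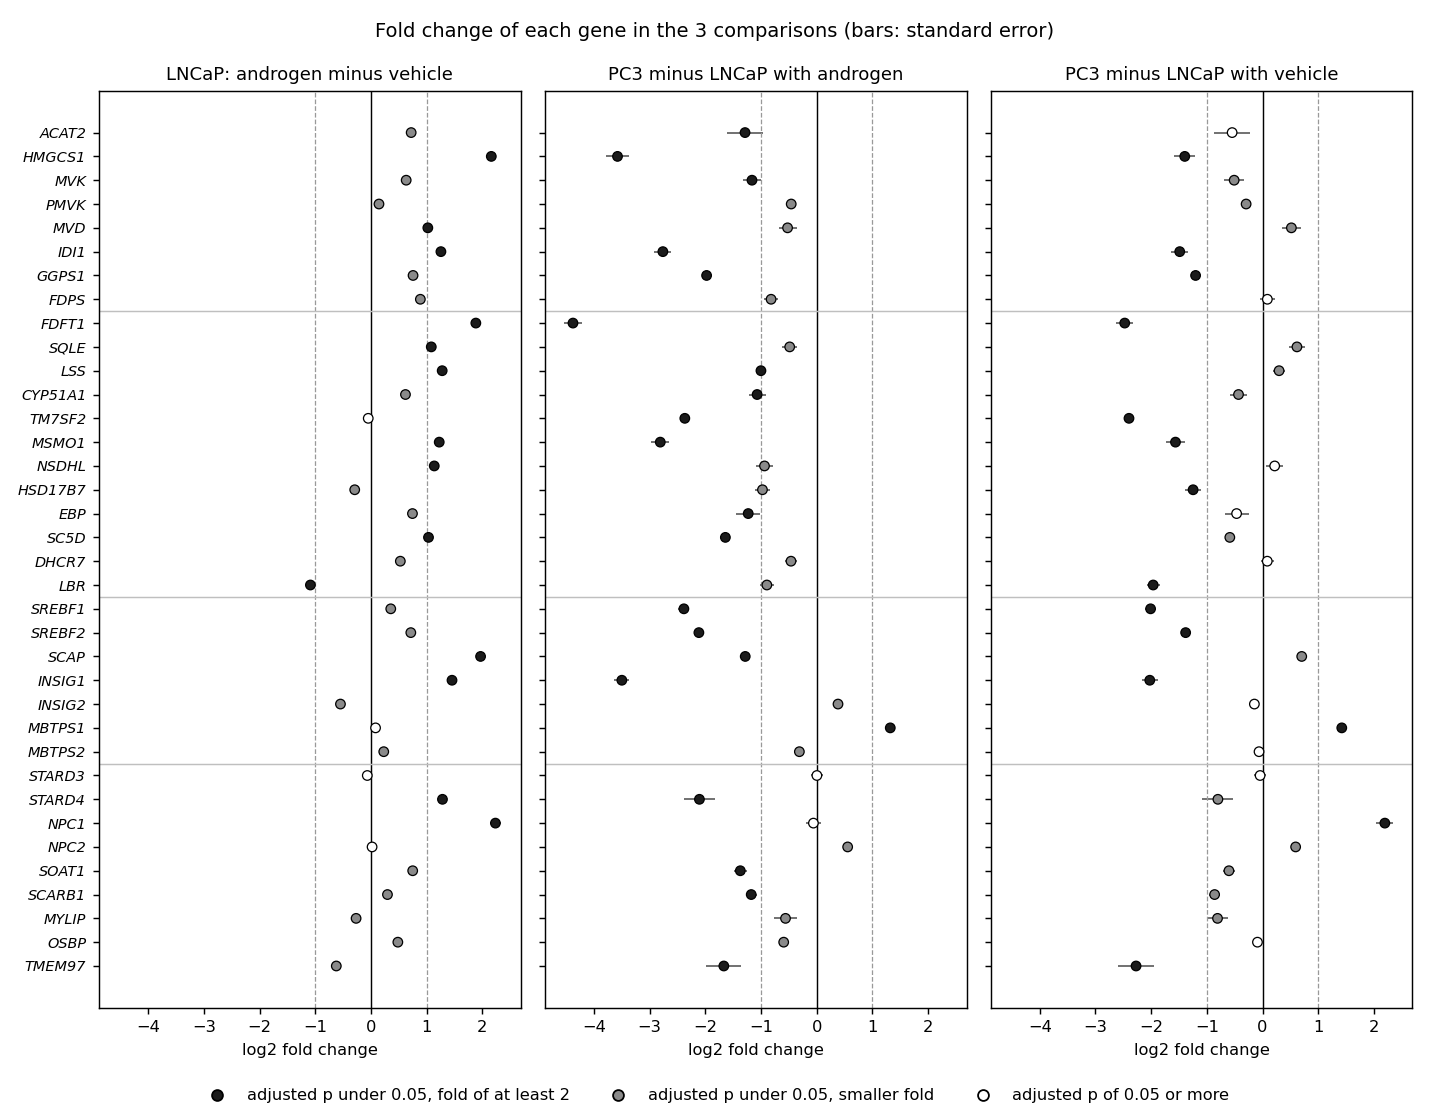
Log2 fold change (x axis) of each of the 36 genes (y axis, grouped by role in pathway order) in the 3 comparisons, with bars for the standard error; black points are called, grey points pass by adjusted p alone, white points do not pass, and dashed lines mark a fold of 2. In the left panel 13 points are black to the right of 0 and 1 to the left, and in the middle panel 20 are black to the left and 1 to the right.

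As a share of all counts on genes, the 36 genes together took 0.684%, 0.673% and 0.697% of the androgen-treated libraries, 0.412%, 0.395% and 0.424% of the vehicle-treated libraries and 0.257%, 0.284% and 0.240% of the PC3 libraries. The groups did not overlap. The mevalonate arm alone took 0.150% to 0.164% with androgen, 0.0697% to 0.0773% with vehicle and 0.0358% to 0.0531% in PC3. In 19 of the 36 genes (52.8%) the group means stood in the order androgen, vehicle, PC3, and in 17 of these no library of one group overlapped the next. Over the 12843 genes above the filter in any 3 libraries, 22.99% had that order and 15.5% had it without overlap. In 8 of the 36 genes (22.2%, against 6.70% of all genes) PC3 lay between the LNCaP groups, with androgen highest. These were MVD, FDPS, SQLE, LSS, NSDHL, DHCR7, SCAP and NPC1. In SQLE and SCAP (5.56% of the 36) the 3 groups did not overlap, against 2.64% of all genes with this order without overlap.

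**Figure D2:**
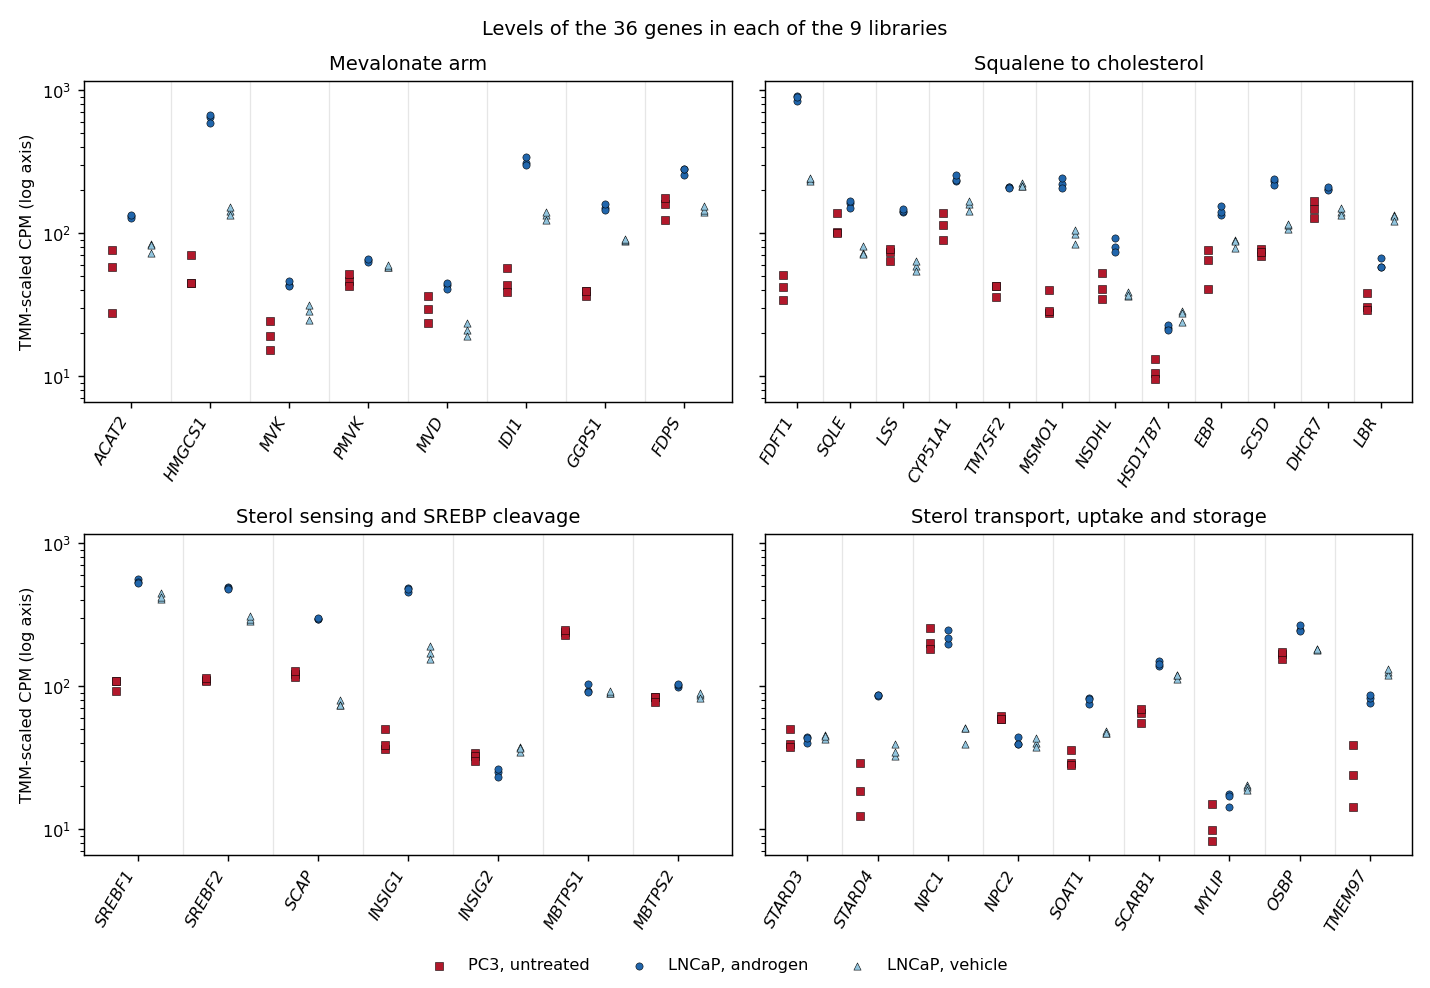
Level of each gene in TMM-scaled CPM (y axis, log scale) in each of the 9 libraries, 1 point per library, in 4 panels by role; squares are PC3, circles LNCaP with androgen and triangles LNCaP with vehicle. FDFT1 runs from 33.8 to 50.9 CPM in PC3 and from 838 to 917 CPM with androgen, while the points of STARD3 lie together.

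In the mevalonate arm, which turns acetyl-CoA into farnesyl and geranylgeranyl diphosphate, the gene with the largest fold change with androgen and between PC3 and androgen was HMGCS1, the cytosolic HMG-CoA synthase (chromosome 5, 43287470 to 43313512 of GRCh38). HMGCS1 had 655, 589 and 673 CPM in the androgen-treated LNCaP libraries, 143, 134 and 153 in the vehicle-treated ones and 44.9, 70.5 and 44.7 in PC3. Every androgen-treated library was above every vehicle-treated one, and every vehicle-treated one above every PC3 library. The log2 fold change was 2.16 ± 0.06 (SE, adjusted p = 3.76e-12) for androgen against vehicle, a fold of 4.47. PC3 stood at 8.37% of the androgen-treated level, with a log2 fold change of -3.58 ± 0.20 (SE, adjusted p = 1.04e-06), and at -1.40 against vehicle (adjusted p = 0.00018). IDI1 encodes the isomerase that makes dimethylallyl diphosphate. It had 309, 301 and 339.5 CPM in the androgen-treated LNCaP libraries, 134, 123 and 141 in the vehicle-treated ones and 43.7, 57.2 and 38.5 in PC3. The groups again did not overlap, with log2 fold changes of 1.26 ± 0.05 (SE, adjusted p = 3.00e-10) for androgen, -2.76 for PC3 against androgen and -1.49 for PC3 against vehicle.

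The other 6 genes of the arm moved less with androgen, from a log2 fold change of 0.14 for PMVK, the second kinase acting on mevalonate, to 1.02 for MVD, the decarboxylase that yields isopentenyl diphosphate. MVD had 43.6, 40.7 and 44.5 CPM with androgen, 20.9, 19.2 and 23.4 with vehicle and 29.3, 36.6 and 23.3 in PC3. It was just past a fold of 2 with androgen (adjusted p = 3.69e-08), and under it without vehicle replicate 1 or 2, at 0.995 and 0.94. All PC3 libraries were below the androgen-treated ones, and PC3 replicate 3 overlapped the vehicle-treated ones. FDPS, the farnesyl diphosphate synthase, rose by 0.89 with androgen and did not pass between PC3 and vehicle, at 0.09 (adjusted p = 0.552). GGPS1 makes the geranylgeranyl diphosphate used to anchor small GTPases and so leaves the sterol route. It was called lower in PC3 against both LNCaP groups, with log2 fold changes of -1.98 ± 0.06 (SE, adjusted p = 6.59e-08) against androgen and -1.20 ± 0.06 (SE, adjusted p = 4.78e-07) against vehicle. ACAT2, the cytosolic thiolase, and MVK, the first mevalonate kinase, were called lower in PC3 against androgen at -1.29 and -1.16, and without PC3 replicate 3 they stood at -0.86 and -0.89, under a fold of 2.

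FDFT1, the squalene synthase that commits farnesyl diphosphate to sterols (chromosome 8, 11795573 to 11839395), had the largest fold change of the 36 genes in both PC3 comparisons. It had 838, 917 and 889.8 CPM in the androgen-treated LNCaP libraries, 241, 232 and 245 in the vehicle-treated ones and 42.2, 50.9 and 33.8 in PC3. The groups lay far apart, and the log2 fold change of PC3 against androgen-treated cells was -4.38 ± 0.16 (SE, adjusted p = 1.42e-07), a level 20.8-fold lower. Against vehicle it was -2.48 ± 0.15 (SE, adjusted p = 1.67e-06), and androgen against vehicle gave 1.88 ± 0.04 (SE, adjusted p = 6.69e-13). SQLE, the squalene epoxidase, and LSS, which closes the rings to lanosterol, act next. SQLE had 163, 151 and 167 CPM in the androgen-treated LNCaP libraries, 73.1, 71.9 and 81.9 in the vehicle-treated ones and 102, 139 and 101 in PC3. SQLE was called higher with androgen, at 1.08 ± 0.06 (SE, adjusted p = 1.47e-09), and all 3 PC3 libraries lay between the LNCaP groups, with -0.49 (adjusted p = 0.0107) against androgen and 0.62 (adjusted p = 0.00376) against vehicle. LSS had 141, 142 and 148 CPM in the androgen-treated LNCaP libraries, 59.4, 54.4 and 63.9 in the vehicle-treated ones and 73.9, 77.2 and 63.5 in PC3. LSS rose with androgen by 1.28 (adjusted p = 1.84e-10). Its difference between PC3 and androgen sat at the threshold, at -1.002, and fell short of a fold of 2 when any 1 PC3 library was left out, at -0.91, -0.94 and -0.80 without replicates 1, 2 and 3. Against vehicle, PC3 passed as higher, at 0.30 (adjusted p = 0.0259).

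Of the enzymes that trim lanosterol to cholesterol, MSMO1, the C4 methyl sterol oxidase, had the largest fold change with androgen and between PC3 and androgen, while TM7SF2 and LBR differed more between PC3 and vehicle. MSMO1 had 220.4, 207 and 245 CPM in the androgen-treated LNCaP libraries, 98.1, 83.8 and 105 in the vehicle-treated ones and 27.4, 39.8 and 28.4 in PC3. The 3 groups did not overlap, and the log2 fold changes were 1.23 ± 0.08 (SE, adjusted p = 9.25e-09) for androgen, -2.81 ± 0.16 (SE, adjusted p = 1.06e-06) for PC3 against androgen and -1.56 ± 0.16 (SE, adjusted p = 4.57e-05) for PC3 against vehicle. NSDHL, which works on the same methyl groups, and SC5D, a sterol desaturase, were called higher with androgen at 1.14 and 1.03, and SC5D stood at 0.98 without vehicle replicate 1. CYP51A1, the lanosterol demethylase, EBP, the sterol isomerase, and DHCR7, the reductase of the last step, passed as higher at 0.62, 0.75 and 0.53 without reaching a fold of 2. DHCR7 had 202, 199.6 and 211 CPM with androgen, 140.2, 134 and 151 with vehicle and 147, 169 and 128 in PC3. The PC3 libraries of DHCR7 spread across the vehicle-treated level, and their difference of 0.08 did not pass (adjusted p = 0.5).

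A further 3 of the 12 genes did not rise with androgen, and among them are both sterol C14 reductases, TM7SF2 and LBR. LBR encodes the lamin B receptor, an inner nuclear membrane protein with this reductase activity. LBR had 58.0, 66.6 and 57.8 CPM in the androgen-treated LNCaP libraries, 134, 131 and 123 in the vehicle-treated ones and 30.4, 38.3 and 29.1 in PC3. All androgen-treated libraries were below all vehicle-treated ones, and LBR was the only one of the 36 called lower, at -1.09 ± 0.06 (SE, adjusted p = 1.99e-09). It was just past a fold of 2, and edgeR's test against a fold of 2 did not call it (adjusted p = 0.200). It was lower still in PC3, at -1.96 ± 0.12 (SE, adjusted p = 1.76e-06) against vehicle and -0.90 (adjusted p = 0.000239) against androgen. TM7SF2 had 212, 209 and 207 CPM in the androgen-treated LNCaP libraries, 223, 215 and 212 in the vehicle-treated ones and 42.9, 35.9 and 42.6 in PC3. TM7SF2 did not pass with androgen, at -0.05 (adjusted p = 0.259), although each vehicle-treated library was slightly above each androgen-treated one, and it was called lower in PC3 against both, at -2.37 ± 0.08 (SE, adjusted p = 8.40e-08) and -2.40 ± 0.08 (SE, adjusted p = 8.18e-08). HSD17B7, which acts with NSDHL, passed as lower with androgen at -0.29 (adjusted p = 0.00424) and was called lower in PC3 against vehicle at -1.25. Of the 74-nt stretches of its transcripts, 24.0% also occur elsewhere in the genome, so its counts are uncertain, and for CYP51A1 that share was 8.31%.

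**Figure D3:**
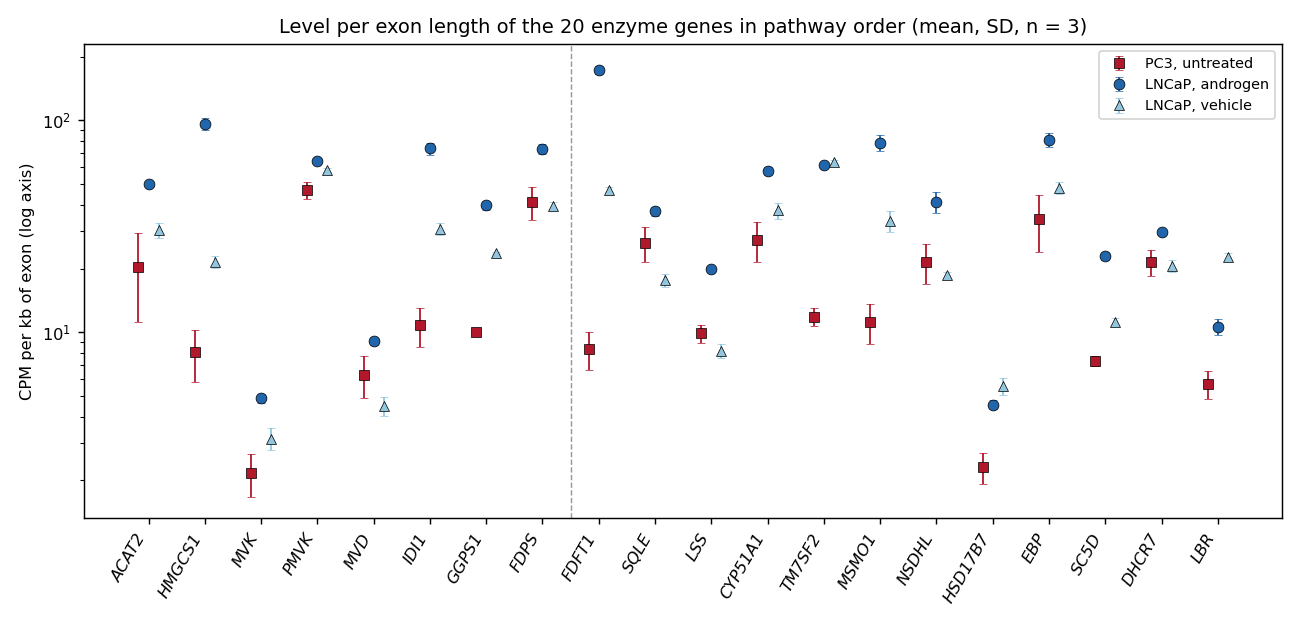
Level of the 20 enzyme genes per kb of exon (y axis, log scale), in pathway order along the x axis, as mean and SD of 3 libraries per group; the dashed line separates the mevalonate arm from the later steps. With androgen FDFT1 is highest at 174 CPM per kb, whereas in PC3 it lies at 8.32 and PMVK, FDPS and EBP are highest.

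Levels can be compared between genes only per length, here as CPM per kb of summed exons in GENCODE 44. With androgen the highest of the 36 were FDFT1 at 174 ± 7.86 (SD, n = 3), INSIG1 at 129.8 ± 4.50 and HMGCS1 at 96.4 ± 6.69 CPM per kb. With vehicle they were TM7SF2 at 63.6 ± 1.68, PMVK at 58.4 ± 1.20 and SREBF1 at 51.6 ± 2.76, and in PC3 they were PMVK at 46.9 ± 4.27, FDPS at 41.3 ± 7.24 and EBP at 34.2 ± 10.3. The intervals of 1 SD of these 3 genes overlap in PC3, so their order there is not resolved. FDFT1 ranked 1 of 36 with androgen, 6 with vehicle and 24 in PC3, and HMGCS1 ranked 3, 17 and 26. Dividing by the longest transcript instead put FDFT1 at ranks 1, 2 and 18 and placed FDPS first and PMVK at rank 5 in PC3, so the order among genes depends on the length used.

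Among the genes of sterol sensing, SREBF1 and SREBF2 encode the SREBP transcription factors (chromosome 17, 17810399 to 17837002, and chromosome 22, 41833105 to 41907306). SREBF1 had 566, 537 and 525 CPM in the androgen-treated LNCaP libraries, 449.5, 405 and 420.1 in the vehicle-treated ones and 109, 109.6 and 92.3 in PC3. The LNCaP groups did not overlap, although the difference was small, with a log2 fold change of 0.36 ± 0.05 (SE, adjusted p = 1.68e-05). PC3 was called lower against both, at -2.39 ± 0.10 (SE, adjusted p = 2.15e-07) and -2.01 ± 0.10 (SE, adjusted p = 4.84e-07). SREBF2 had 493, 486 and 478 CPM in the androgen-treated LNCaP libraries, 286, 293 and 308 in the vehicle-treated ones and 111, 109.7 and 115 in PC3. SREBF2, whose upstream stretch holds the match to the sterol regulatory element, stood in 3 separate levels. It passed as higher with androgen at 0.72 ± 0.04 (SE, adjusted p = 2.91e-09) and was called lower in PC3 at -2.12 ± 0.06 (SE, adjusted p = 4.88e-08) against androgen and -1.38 ± 0.06 (SE, adjusted p = 2.36e-07) against vehicle. The counts do not separate the isoforms of SREBF1, which differ in the genes they act on.

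SCAP, the escort that carries SREBPs to the Golgi, was among the genes that rose most with androgen. SCAP had 296, 297 and 300.0 CPM in the androgen-treated LNCaP libraries, 80.6, 73.8 and 74.1 in the vehicle-treated ones and 122, 116 and 129 in PC3. The 3 groups did not overlap, with PC3 between the LNCaP groups. The log2 fold change with androgen was 1.97 ± 0.04 (SE, adjusted p = 6.33e-13), a fold of 3.91, and PC3 was called lower against androgen at -1.28 ± 0.06 (SE, adjusted p = 3.44e-07) and passed as higher against vehicle at 0.70 ± 0.07 (SE, adjusted p = 2.15e-05). The INSIG genes, whose products retain SCAP in the endoplasmic reticulum, moved in opposite directions with androgen. INSIG1 had 455, 487 and 479 CPM in the androgen-treated LNCaP libraries, 171, 156 and 192 in the vehicle-treated ones and 36.4, 50.1 and 38.8 in PC3. INSIG1, itself a target of SREBPs, was called higher with androgen at 1.46 ± 0.06 (SE, adjusted p = 2.23e-10) and was 11.3-fold lower in PC3 than with androgen, at -3.50 ± 0.13 (SE, adjusted p = 1.54e-07), and at -2.03 ± 0.14 (SE, adjusted p = 4.09e-06) against vehicle. INSIG2 had 25.0, 26.4 and 23.1 CPM in the androgen-treated LNCaP libraries, 34.8, 37.5 and 36.8 in the vehicle-treated ones and 34.1, 32.5 and 30.2 in PC3. INSIG2 passed as lower with androgen at -0.55 ± 0.07 (SE, adjusted p = 5.37e-06), with all androgen-treated libraries below all others. PC3 passed as higher against androgen at 0.38 (adjusted p = 0.00504) and did not pass against vehicle at -0.15 (adjusted p = 0.114).

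The proteases that release SREBPs are the remaining 2 genes of this role. MBTPS1 encodes the first protease, in the Golgi, which also cleaves other membrane-bound factors. MBTPS1 had 92.4, 91.1 and 104 CPM in the androgen-treated LNCaP libraries, 89.8, 89.1 and 92.8 in the vehicle-treated ones and 238, 229 and 249 in PC3. All PC3 libraries were above all LNCaP libraries, and the log2 fold changes of 1.32 ± 0.07 (SE, adjusted p = 6.13e-07) and 1.42 ± 0.06 (SE, adjusted p = 1.88e-07) were the only ones of a sensing gene called higher in PC3. With androgen it did not pass, at 0.08 (adjusted p = 0.154). MBTPS2, the second protease, cuts within the membrane. MBTPS2 had 98.8, 103 and 103 CPM in the androgen-treated LNCaP libraries, 86.8, 90.4 and 83.3 in the vehicle-treated ones and 83.4, 84.3 and 77.4 in PC3. Its differences were small, at 0.23 (adjusted p = 0.000295) with androgen, -0.31 (adjusted p = 0.00194) for PC3 against androgen and -0.06 (adjusted p = 0.396) against vehicle.

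Among the genes of transport, uptake and storage, NPC1, the membrane protein that moves cholesterol out of lysosomes (chromosome 18, 23506184 to 23586506), had the largest fold change of all 36 with androgen. NPC1 had 249, 199 and 217 CPM in the androgen-treated LNCaP libraries, 50.9, 39.7 and 50.7 in the vehicle-treated ones and 199, 182 and 257 in PC3. The vehicle-treated libraries were all far below the rest, while PC3 and androgen-treated libraries overlapped. The log2 fold change was 2.24 ± 0.10 (SE, adjusted p = 2.63e-10) with androgen and 2.20 ± 0.15 (SE, adjusted p = 3.70e-06) for PC3 against vehicle, and -0.06 (adjusted p = 0.696) for PC3 against androgen. NPC2, the soluble partner that hands cholesterol to NPC1 inside the lysosome, did not pass with androgen. NPC2 had 39.1, 44.1 and 39.2 CPM in the androgen-treated LNCaP libraries, 40.1, 43.5 and 37.4 in the vehicle-treated ones and 59.1, 61.8 and 58.6 in PC3. Its log2 fold change with androgen was 0.02 (adjusted p = 0.795), and PC3 passed as higher against both groups, at 0.55 and 0.59. A share of 1.14% of the 74-nt stretches of NPC1 transcripts occurs elsewhere in the genome.

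STARD4, a soluble carrier that moves cholesterol between membranes, moved in the same direction as most enzymes. STARD4 had 86.5, 85.4 and 87.3 CPM in the androgen-treated LNCaP libraries, 32.5, 34.4 and 39.6 in the vehicle-treated ones and 18.5, 29.0 and 12.4 in PC3. It was called higher with androgen at 1.28 ± 0.06 (SE, adjusted p = 7.69e-10) and lower in PC3 against androgen at -2.11 ± 0.27 (SE, adjusted p = 0.000142), and PC3 passed as lower against vehicle at -0.80 (adjusted p = 0.028). STARD3, a relative that tethers late endosomes to the endoplasmic reticulum, did not pass in any comparison. STARD3 had 44.0, 40.2 and 43.2 CPM in the androgen-treated LNCaP libraries, 42.8, 46.0 and 44.8 in the vehicle-treated ones and 39.7, 37.7 and 50.2 in PC3. Its log2 fold changes were -0.07 (adjusted p = 0.29) with androgen, 0.0025 (adjusted p = 0.984) for PC3 against androgen and -0.04 (adjusted p = 0.709) against vehicle, with standard errors of 0.05, 0.11 and 0.11. SOAT1, which esterifies cholesterol for storage, rose by 0.75 with androgen without reaching a fold of 2. SOAT1 and SCARB1, the receptor for high-density lipoprotein, were called lower in PC3 against androgen at -1.37 and -1.18.

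TMEM97, a sterol-regulated membrane protein that binds NPC1, fell with androgen. TMEM97 had 77.0, 82.1 and 87.2 CPM in the androgen-treated LNCaP libraries, 126, 120.5 and 133 in the vehicle-treated ones and 24.0, 38.8 and 14.3 in PC3. All vehicle-treated libraries were above all androgen-treated ones, which were all above PC3, and the log2 fold changes were -0.62 ± 0.05 (SE, adjusted p = 1.38e-07) with androgen, -1.67 ± 0.31 (SE, adjusted p = 0.0013) for PC3 against androgen and -2.27 ± 0.32 (SE, adjusted p = 0.000249) against vehicle. The standard errors in the PC3 comparisons were wide, and the PC3 replicates of TMEM97 spread widely. MYLIP, a ubiquitin ligase that removes lipoprotein receptors and responds to the sterol receptors of the LXR family, passed as lower with androgen at -0.27 (adjusted p = 0.0135). OSBP, which exchanges sterols between the endoplasmic reticulum and the Golgi, passed as higher with androgen at 0.48 and as lower in PC3 against androgen at -0.59.

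The PC3 libraries differed among themselves in the enzyme genes more than the LNCaP libraries did. The median SD of log2 CPM (with 0.5 CPM added) over the 20 enzyme genes was 0.28 in PC3, beside 0.14 over all 12843 genes above the filter. It was 0.07 with androgen (all genes 0.07) and 0.10 with vehicle (all genes 0.07). PC3 replicate 2 was the highest of the 3 PC3 libraries in 17 of the 20 enzyme genes and replicate 3 the lowest in 15 of 20, against 31.9% and 36.9% of all genes. The exceptions to the first were PMVK, GGPS1 and TM7SF2, and PC3 replicate 3 stood at a median of 71.0% of the replicate 2 level over the 20 enzyme genes, from 36.9% in ACAT2 to 120% in PMVK, beside 103% over all genes. Within LNCaP, replicate 3 was highest in 16 of 20 enzyme genes with androgen and in 14 of 20 with vehicle, against 36.6% and 30.2% of all genes, by smaller amounts.

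**Figure D4:**
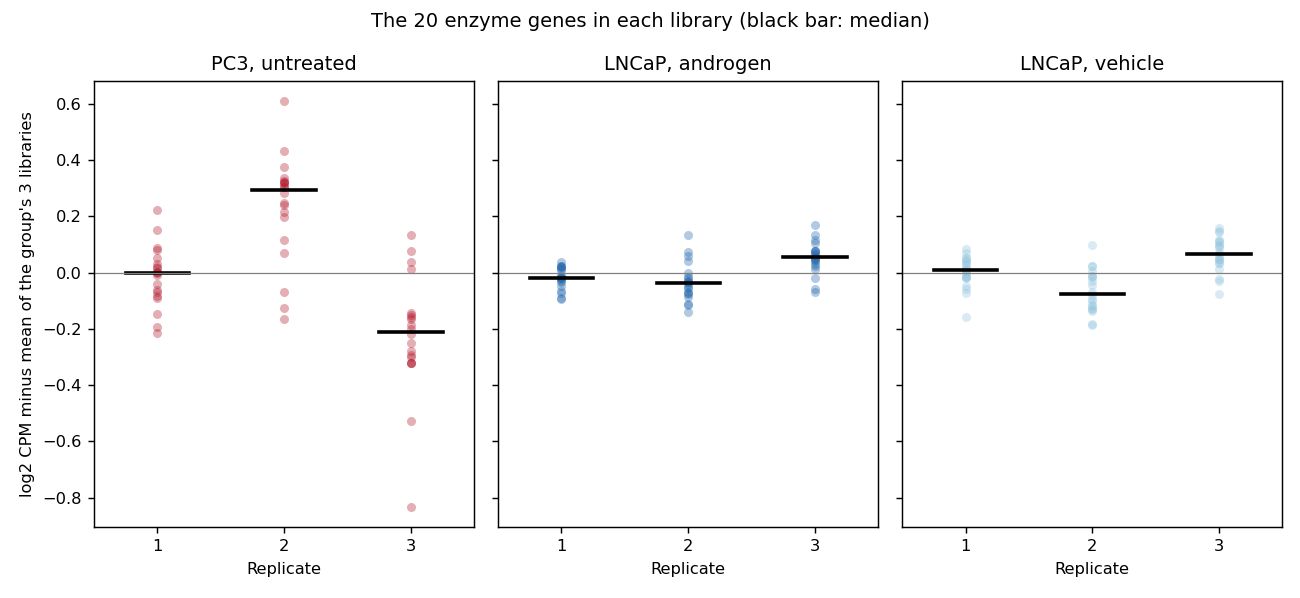
Log2 CPM of each of the 20 enzyme genes minus the mean of its group's 3 libraries (y axis), by replicate (x axis), 1 point per gene and a black bar for the median, in PC3, LNCaP with androgen and LNCaP with vehicle. In PC3 the median lies at 0.29 in replicate 2 and -0.21 in replicate 3, whereas the medians of the LNCaP libraries lie between -0.0749 and 0.0648.

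PC3 replicate 2 held the fewest counts of the PC3 libraries (22444083, against 25143833 and 25640325), and replicate 3 held 20 counts of the LNCaP marker KLK3, against 2 in each of the others. The part of either in the enzyme levels was not tested. The median log2 fold change of the 36 genes without PC3 replicate 3 was -0.83 against androgen and -0.27 against vehicle. The count of the 36 genes called lower in PC3 against androgen was 14 without PC3 replicate 3 and lay between 18 and 23 when any other library was left out. The share over all genes was 22.4% without PC3 replicate 3 and 18.2% to 22.1% without another library. Without replicate 3 the log2 fold changes of ACAT2, MVK, LSS, CYP51A1, EBP and SCARB1 lay between -0.80 and -0.97, each with an adjusted p-value under 0.05 but under a fold of 2, and CYP51A1 also fell under it without replicate 1, at -0.95. FDFT1, HMGCS1, INSIG1, IDI1, MSMO1, SREBF1, SREBF2 and TM7SF2 were called in that setting too.

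A further list of 25 genes of sterol and isoprenoid metabolism was counted in the same fits. With androgen 21 of them were tested, 1 was called, as higher, where 6.54% of all genes were, and 11 passed as higher and 5 as lower, where 37.1% and 37.8% of all did. The called gene was FAXDC2, a relative of the sterol hydroxylases, with 8.53, 5.39 and 8.59 CPM with androgen, 1.94, 1.27 and 2.09 with vehicle and 0 to 1 counts per library in PC3. Its log2 fold change with androgen was 2.08 ± 0.22 (SE, adjusted p = 2.06e-06). FAXDC2 was above 3 CPM only in the androgen-treated libraries, so it entered the test through the group where it was high. Its p-value is therefore no independent support for a rise. For PC3 against androgen 23 were tested, 4 were called higher and 5 lower, against 24.0% and 22.1% of all genes. Against vehicle 22 were tested, with 5 called higher and 4 lower, against 22.2% and 21.0% of all. These counts lie near the shares over all genes. NCEH1, which hydrolyses cholesterol esters, had 158, 154 and 146 CPM in PC3, 22.9, 17.5 and 17.0 with androgen and 13.5, 13.2 and 14.0 with vehicle, and was called higher in PC3 against both, at 2.99 ± 0.13 (SE, adjusted p = 2.89e-07) and 3.52 ± 0.07 (SE, adjusted p = 1.35e-08). CYP27A1, a sterol hydroxylase of mitochondria, had 247, 224 and 228 counts in PC3, 0 in every androgen-treated library and 2, 0 and 1 in the vehicle-treated ones. It was at least 65.7-fold higher in PC3 than with androgen, taking 3 counts per library as the upper limit of a count of 0, which covers counting error only. ERLIN2, which takes part in the degradation of sterol-regulated enzymes, was called lower in PC3 at -1.92 ± 0.07 (SE, adjusted p = 1.16e-07) against androgen and -1.92 ± 0.06 (SE, adjusted p = 6.18e-08) against vehicle. STARD5, another carrier of the START family, was called lower in PC3 against vehicle at -1.995 ± 0.26 (SE, adjusted p = 0.000165). Between these groups it was above 3 CPM only with vehicle, so it too entered the test through the group where it was high.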

How the data were processed

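RNA was sequenced as 74-nt single-end reads from 9 libraries. According to the study's methods, adapters were trimmed with cutadapt, reads were aligned to hg38 with STAR, and the reads left after UMI-tools had collapsed PCR duplicates were mapped once more. The authors deposited counts, whole numbers of reads per gene symbol without normalization, and each of the 253944 values matched the STAR count for the forward strand. The annotation behind the counts is not given in the sources used here.

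The 36 genes and all lists were chosen with earlier results of these data known. A marker gene of the LNCaP list is not reported here, and its values are left out of the list's sums. Per-library values were to be given for SREBF1, SREBF2, INSIG1, INSIG2, the 8 called genes of largest fold change and the 3 of smallest fold change in each comparison, and at most 4 called genes of the further list. MBTPS1, MVD and SQLE are given in addition and were picked after their values were seen. Each comparison was tested with the quasi-likelihood F test of edgeR 4.0.16 (R 4.3.3) on TMM-scaled counts, with the filter (more than 3 CPM in at least 3 libraries) and call rule (adjusted p under 0.05, fold of at least 2) of the study. The Benjamini-Hochberg adjustment ran over every gene tested, and standard errors were taken from the fold change and its F statistic. The study applied a likelihood ratio test that included batch, a term left out here because the sources used do not name the batches. TMM places most genes near a log2 fold change of 0, and it cannot show a change common to most genes.

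For same-numbered LNCaP libraries with and without androgen, the deviations from their group means over 11697 genes had correlations of 0.20, 0.23 and 0.21, and for unlike numbers of -0.24 to 0.04. On this evidence from the counts the LNCaP replicate numbers may mark pairs. The fits behind the reported fold changes, standard errors and p-values do not use such pairs, and the fit with the number as a block is an alternative. Between PC3 and LNCaP libraries same-number values lay between -0.15 and 0.05. Replicates differed by more than sampling noise in all 9 pairs. Further alternatives were the size factors and the Wald test of DESeq2 1.42.0, a likelihood ratio test, 2 other filters, calls by adjusted p alone or by a test against 2-fold, unstranded counts, all 9 libraries in 1 fit and leaving out each library. Gene positions and lengths are from GENCODE 44 on GRCh38. Promoter sequences are from a set at RefSeq starts on GRCh38.p14, and the first promoter it lists per gene was used.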

Additional observations from a re-analysis of the deposited data

How the results depend on the processing

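Under the alternatives that kept the call rule, the counts of the 36 genes called stayed within 1.5 times those reported. With the replicate number as a block the counts were 13 higher and 1 lower for androgen against vehicle, 1 higher and 20 lower for PC3 against androgen, and 2 higher and 12 lower for PC3 against vehicle. The shares over all genes in that fit were, in the same order, 6.52% and 7.48%, 23.8% and 22.1%, and 22.1% and 21.2%. With the adjusted p-value alone the counts were 27 and 5, 3 and 31, and 7 and 20. The shares over all genes were then 37.1% and 37.8%, 42.9% and 41.1%, and 42.6% and 40.8%. In the test of edgeR against a fold of 2, 9 genes were called higher with androgen (MVD, SQLE, NSDHL and SC5D were lost) and 15 lower in PC3 against androgen (ACAT2, MVK, LSS, CYP51A1 and EBP were lost). The shares over all genes were 5.09% for the first and 18.9% for the second. In this test 0 of the 36 genes were called lower with androgen, against 5.41% of all genes. LBR had an adjusted p of 0.200 in it, 1 gene was lower at an unadjusted p under 0.05, and DESeq2's Wald test called 1. When single libraries were left out, 11 to 13 genes were called higher and 1 lower with androgen, 14 to 23 were called lower and 1 higher in PC3 against androgen, and 12 to 13 lower and 2 higher in PC3 against vehicle, and the median log2 fold changes ranged from 0.66 to 0.73, from -1.21 to -0.83 and from -0.69 to -0.27. Over all genes, the shares called without single libraries were 5.39% to 6.57% higher and 5.79% to 7.89% lower with androgen. They were 18.2% to 22.4% lower and 18.8% to 24.1% higher in PC3 against androgen, and 16.9% to 21.7% lower and 16.4% to 22.2% higher against vehicle. The lowest counts of the 36 genes came without PC3 replicate 3 and, with androgen, without vehicle replicate 1.

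Some genes crossed the fold of 2 when a library was left out. Against androgen-treated cells, NSDHL reached -1.03 and -1.10 without androgen replicates 1 and 2, HSD17B7 reached -1.03 to -1.11 without any of them, and LBR -1.005 and -1.03 without replicates 1 and 3. Against vehicle, STARD4 reached -1.08 without PC3 replicate 2 and SCARB1 -1.001 without vehicle replicate 2. Signs turned only in genes that did not pass. NPC2 with androgen ranged from -0.0487 to 0.0606 without single libraries. For PC3 against androgen, STARD3 was at -0.0015 with DESeq2 size factors and with the Wald test and at -0.0054 with the block under either edgeR test, and ranged from -0.13 to 0.20 without single libraries, and NPC1 ranged from -0.23 to 0.16. For PC3 against vehicle the ranges were -0.19 to 0.0639 for MBTPS2, -0.17 to 0.13 for STARD3, -0.21 to 0.0433 for OSBP, -0.0387 to 0.31 for FDPS and -0.0616 to 0.27 for DHCR7. The cause of these shifts was not tested.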
